A study of Homo sapiens with 6 samples.

Results

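The genes described here encode the machinery that licenses origins of DNA replication and runs the replication fork. They were 44 genes chosen by name, from the origin recognition complex to thymidylate synthase, and 44 of 44 were found among the 29810 rows of the deposited expression table through their Ensembl identifiers. mRNA-seq was performed on Kasumi-1 cells, a human AML cell line with the t(8;21) translocation that fuses RUNX1 to RUNX1T1. There were 3 control libraries and 3 libraries of cells incubated with 0.25 μM I3, a histone deacetylase (HDAC) inhibitor. Both groups were cultured for 48 h per the labels and the methods, although a figure legend of the study gives a longer incubation, and per the methods the control cultures held the same concentration of the solvent DMSO as the I3 cultures. All libraries came from 1 cell line without any genetic change between the groups, and the labels do not say whether libraries of a group came from separate cultures. The p-values therefore measure the spread between these libraries, which may be technical. The comparison of I3 with control asks which transcripts differed after the incubation with the inhibitor.

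In G1, the origin recognition complex (ORC1 to ORC6) marks origins, and CDC6 and CDT1 load the ring of MCM2 to MCM7 onto the DNA, which licenses the origin. Geminin (GMNN) binds CDT1 and blocks a further round of loading after S phase has begun. CDC45, the GINS complex and MCM10 turn the loaded ring into an active helicase. The DNA polymerase α and primase complex then makes primers, which polymerases δ and ε extend with the sliding clamp PCNA and its loader RFC. RPA covers single-stranded DNA, FEN1 and LIG1 mature Okazaki fragments, and ribonucleotide reductase (RRM1 and RRM2) and TYMS supply nucleotides. Many of these genes are textbook targets of E2F transcription factors and are transcribed mainly from late G1 into S phase.

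Because of that background, the promoters were searched for 7-letter words of the E2F type, which were TTCCCGC or TTGGCGC or TTCGCGC or TTGCCGC on either strand. These words were chosen after the promoter of CDT1 had been looked at. RefSeq promoters (GRCh38.p14), which run from 250 bases before to 50 bases after a gene's start, were given for 38 of the 44 genes. A word was present in 26 of them (68.4%), against 13.1% of the promoters of 27305 genes and 21.4% of those of the 8924 expression-tested genes with a promoter. At least 2 matches were present in 11 of the 38 (28.9%), against 1.81% and 3.37%. The word CCAAT on either strand was present in 22 of the 38 (57.9%), against 35.7% and 37.3%. At least 2 matches of CCAAT were present in 12 of the 38 (31.6%), against 11.3% and 14.5%. CCAAT was thus also more frequent in the members, and none of these shares was matched for base composition. A match of letters is a description of the sequence and does not show that a factor bound there. The stretches below are shown because CDT1 stood furthest from 0 among the members in the comparison of I3 with control, and ORC1, MCM3, MCM6 and PCNA are members close to 0 that also carry such a word. Words were also present in the promoters of TYMS, GINS1 and RFC3, which stood further from 0 than these 4. Each is written on the strand of its gene, ends at or before the RefSeq start of the gene, and has the matched letters, or overlapping matches as a run, in capitals. The RefSeq start can differ from the GENCODE one used for the expression table, and the stretches of CDT1 and MCM3 lie wholly, and that of ORC1 partly, inside the GENCODE span of the gene.
CDT1, chr16:88803736-88803788, plus strand: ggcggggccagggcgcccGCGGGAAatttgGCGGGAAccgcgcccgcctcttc
ORC1, chr1:52404424-52404472, minus strand: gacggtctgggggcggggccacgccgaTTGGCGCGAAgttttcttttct
MCM3, chr6:52284743-52284795, minus strand: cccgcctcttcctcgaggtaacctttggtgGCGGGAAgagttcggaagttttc
MCM6, chr2:135876493-135876559, minus strand: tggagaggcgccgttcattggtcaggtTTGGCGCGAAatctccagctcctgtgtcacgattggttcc
PCNA, chr20:5126645-5126711, minus strand: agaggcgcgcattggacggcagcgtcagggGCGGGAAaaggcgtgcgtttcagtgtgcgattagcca

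The CDT1 stretch holds 2 separate matches of the same word, with the first letter of the nearer match 23 bases before the RefSeq start. In ORC1 and MCM6 a single run of letters holds 2 overlapping matches, and in MCM3 and PCNA the stretch holds 1. ORC6, the member whose I3 libraries all lay above its control libraries, was 1 of 12 members without a match among the 38 promoters. A relation between matches and fold changes was not tested.

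The authors deposited FPKM, the fragments of a gene scaled to its length and to the fragments counted in the library. The values were compared with limma on log2(FPKM + 0.5) over the 12960 genes whose mean reached 0.5 FPKM, and all 44 members passed this filter. The depth rebuilt from the FPKM values was 17500320 to 18193373 reads per library, and the lowest member value in a library rested on 184 reads (GINS3). Of the markers of this line, KIT was at 198 to 225 FPKM, CD34 at 28.9 to 38.8 FPKM and MPO at 7740 to 8612 FPKM. The markers of T cells, B cells, erythroid cells and fibroblasts found in the table, with the keratin KRT8, summed to 0.517 to 1.25 FPKM in control and 0.376 to 0.928 FPKM in I3 libraries, with HBA1, COL1A1 and KRT8 each listed at 0 in 5 of the 6 libraries. The epithelial gene EPCAM was at 28.2 to 31.6 FPKM.

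No replication gene was called between I3 and control by the thresholds of the study, an adjusted p of 0.05 and an absolute log2 fold change of 0.58. The counts were 0 of 44 members higher and 0 of 44 lower, and the same thresholds called 0% of all 12960 genes higher and 0% lower (limma, Benjamini-Hochberg). The study, which used DESeq, reported both upregulated and downregulated genes. The 0% therefore holds for limma on the deposited FPKM, and why the 2 procedures differ was not tested. The smallest adjusted p was 0.868 among the members (limma, for CDT1), 0.998 among the other members and 0.309 over all genes. At an unadjusted p under 0.05, 0 members were higher, against 2.08% of all tested genes, and 1 member (CDT1) was lower, which is 2.27% of the members against 2.85% of all tested genes. The median log2 fold change was -0.0082 over the members and 0.011 over all tested genes, with 19 members above 0 and 25 below. The absolute log2 fold change was under 0.1 in 39 of the 44 members (88.6%) and in 61.3% of all tested genes, and its median was 0.043 and 0.075. These shares were not matched for level, and a mean of 5 FPKM was reached by 39 members and by 6642 of the 12960 genes. The median SD within groups on the log2 scale was 0.0973 for the members and 0.124 for all tested genes. For 38 members the SD within groups on the log2 scale exceeded the size of the difference.

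The intervals describe the difference of each replication gene given the spread between these libraries, which may be technical. They are set gene by gene and do not hold jointly over the members. The 95% interval of the log2 fold change lay within 0.58 of 0 for 44 of 44 members, against 81.6% of all tested genes and 96.3% of the 6642 genes averaging 5 FPKM or more. Of the members, 39 averaged that much. Apart from CDT1, the lowest bound was -0.48 (TYMS) and the highest was 0.32 (GINS1). The interval covered 0 in every member except CDT1. In mRNA from bulk cultures, fewer cells in S phase and less mRNA per cell cannot be told apart.

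**Figure D1:**
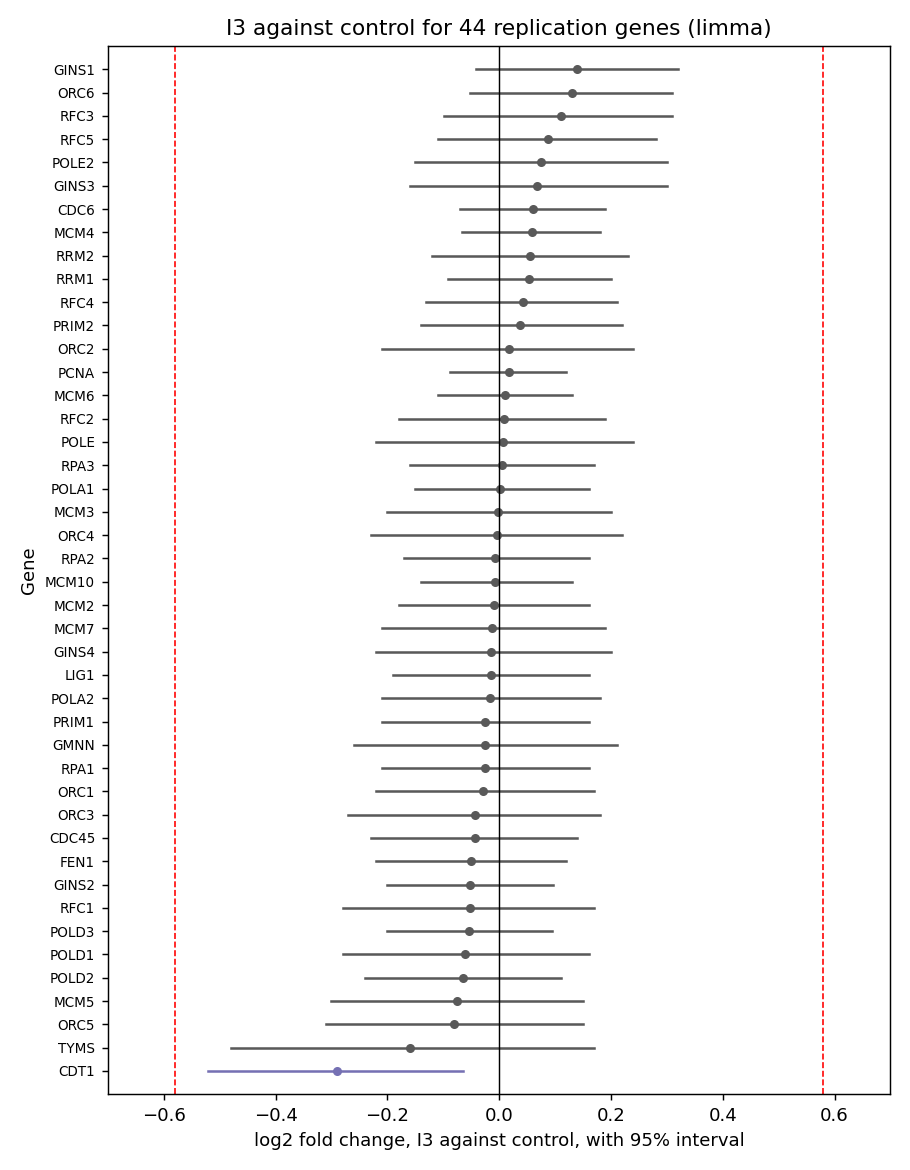
Log2 fold change of I3 against control (horizontal axis) for the 44 replication genes (vertical axis), with points for the limma estimate, lines for its 95% interval and dashed lines 0.58 to either side of 0. All 44 intervals end between the dashed lines, and that of CDT1 (coloured) is the only one that does not cross 0.

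Among the loading factors, CDT1 (chr16:88803213-88809258 on GRCh38, GENCODE release 29) had 45.3, 56.8 and 53.4 FPKM in control 1, 2 and 3 and 41.2, 45.9 and 39.4 FPKM in I3 1, 2 and 3. The groups overlapped, because control 1 lay just below I3 2. The mean was 51.8 ± 5.90 FPKM in control and 42.2 ± 3.35 FPKM in I3 (SD, n = 3 each). The log2 fold change of CDT1 was -0.29 ± 0.0966 (SE), a ratio of 0.817. The unadjusted limma p was 0.0186, the adjusted p was 0.868 (Benjamini-Hochberg), and the exact permutation p was 0.2, with 0.1 the smallest p that 3 against 3 libraries allow. CDT1 thus did not pass the adjusted test. With 1 library left out in turn, its unadjusted limma p was 0.0645 without control 2, 0.06 without control 3, 0.054 without I3 1, 0.0629 without I3 3, 0.0128 without I3 2 and 0.00219 without control 1.

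The partners of CDT1 in loading lay close to 0. CDC6, the ATPase that recruits CDT1 and the MCM ring, had 14.2, 14.5 and 13.5 FPKM in control and 14.6, 14.5 and 15.0 FPKM in I3, with a log2 fold change of 0.061 ± 0.0559 (SE). The highest value of CDC6 was in I3 3, and the groups overlapped. Geminin (GMNN) ranged from 17.6 to 20.1 FPKM in control and from 16.4 to 20.4 FPKM in I3, with a log2 fold change of -0.026. The unadjusted limma p was 0.307 for CDC6 and 0.802 for GMNN.

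CDT1 also has the highest GC content of the 44 members (65.3%), and the libraries differed in how a gene's level followed GC content. Across the 44 members, GC content was rank-correlated with how far a gene stood from its 6-library mean in each library. The correlation was positive in control 2 (0.639), control 3 (0.585) and I3 2 (0.493), and it was negative in control 1 (-0.677), I3 3 (-0.492) and I3 1 (-0.459). Control thus held 2 of the 3 libraries in which GC-rich genes were relatively high, and I3 held 1. Of the 19 members with a GC content of at least 50%, 10 had their highest value in control 2 and 9 their lowest in control 1. Points of 1 library share its preparation and depth, so these correlations are descriptions over genes, and over 12939 genes they had the same signs, from -0.446 to 0.446.

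**Figure D2:**
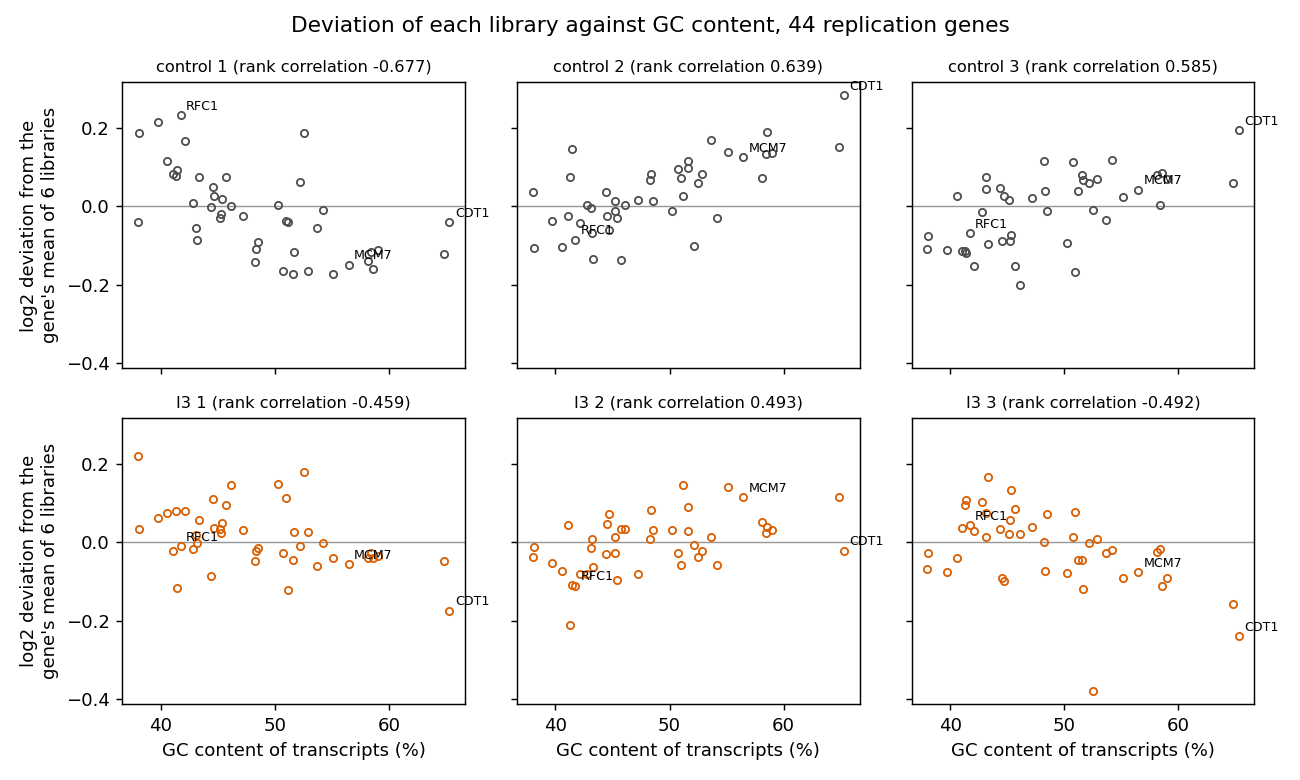
Deviation of each library from a gene's mean over the 6 libraries (log2 scale, vertical axes) against the GC content of its transcripts in percent (horizontal axes), with a point for each of the 44 replication genes and a panel for each library. GC-rich genes lie low in control 1, I3 1 and I3 3 and high in control 2, control 3 and I3 2, and CDT1 is the point furthest right in every panel.

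The libraries were also compared within each kind, which was defined from these data and leaves 1 library in an arm, so these values have no spread and no test. The mean of CDT1 was 55.1 FPKM in control 2 and control 3 against 45.9 FPKM in I3 2, a log2 difference of -0.26. CDT1 was at 45.3 FPKM in control 1 against a mean of 40.3 FPKM in I3 1 and I3 3, a log2 difference of -0.17. After each library had been corrected for GC content, CDT1 was at 45.5, 52.4 and 52.1 FPKM in control and 42.2, 44.3 and 42.8 FPKM in I3, and the groups no longer overlapped. CDT1 was then 1 of 2 members (4.55%) with I3 wholly below control, against 5.62% of all tested genes. The log2 fold change with that correction was -0.21, and the limma p was 0.0127 unadjusted and 0.721 after Benjamini-Hochberg adjustment.

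No gene of the origin recognition complex passed the test. The log2 fold changes of its 6 subunits ran from -0.08 (ORC5) to 0.13 (ORC6), with 2 above 0 and 4 below, and the summed level was 62.9, 63.4 and 59.7 FPKM in control and 62.7, 60.2 and 62.4 FPKM in I3. ORC6, the subunit least tightly bound to the others, had 11.2, 11.3 and 9.72 FPKM in control and 12.5, 11.5 and 11.4 FPKM in I3. All 3 I3 values of ORC6 lay above all 3 control values, the exact permutation p was 0.1, and the log2 fold change was 0.13 ± 0.0781 (SE) with an unadjusted p of 0.135 in limma. It was 1 of 44 members (2.27%) with I3 wholly above control, against 5.06% of all tested genes, and 0 members had I3 wholly below control, against 4.64% of all tested genes. After the GC correction the values of ORC6 overlapped, at 11, 11.5 and 9.95 FPKM in control and 12.3, 11.6 and 11.1 FPKM in I3.

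The other ORC subunits give the range of the complex. ORC1, the ATPase subunit that binds CDC6, was the most abundant of the 6 with a mean of 22.3 FPKM, and ORC4, another ATPase subunit, was the least abundant with 4.44 FPKM. ORC4 had 5.11, 4.08 and 4.18 FPKM in control and 4.55, 4.39 and 4.33 FPKM in I3, with a log2 fold change of -0.0040 ± 0.0948 (SE) and an unadjusted limma p of 0.967. The I3 libraries of ORC4 lay inside the range of its control libraries.

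The genes of the replicative helicase had nearly level means in the groups, and none passed the test. The summed level of MCM2 to MCM7 was 379, 441 and 431 FPKM in control and 405, 435 and 406 FPKM in I3, with means of 417 ± 33.3 and 415 ± 16.9 FPKM (SD, n = 3 each). Control 1 was the lowest and control 2 the highest of the 6 sums. The log2 fold changes of the 6 subunits ran from -0.076 (MCM5) to 0.059 (MCM4), and the widest interval bound of any subunit was -0.30.

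MCM7 was the most abundant subunit, with 111, 134 and 126 FPKM in control and 118, 133 and 116 FPKM in I3, and a log2 fold change of -0.012 ± 0.0861 (SE). MCM3 had 71.8, 86.7 and 85.6 FPKM in control and 78.4, 86.2 and 78.4 FPKM in I3, and a log2 fold change of -0.0025 ± 0.0845 (SE). MCM2 had 65.6, 76.1 and 76.5 FPKM in control and 70.2, 75.0 and 71.1 FPKM in I3, and a log2 fold change of -0.0091 ± 0.0716 (SE). In these 3 GC-rich genes the lowest value was control 1, and every I3 library lay within the range of the control libraries. MCM5, the GC-richest of the 6 at 58.6%, had 27.6, 35.3 and 32.8 FPKM in control and 30, 31.8 and 28.5 FPKM in I3, with a log2 fold change of -0.076 ± 0.0951 (SE). With 1 library left out, the log2 fold change of MCM5 ran from -0.17 without control 1 (unadjusted limma p 0.0378) to -0.00054 without control 2 (p 0.996).

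MCM6 and MCM4 varied less between libraries. MCM6 had 54.3, 56.3 and 58.2 FPKM in control and 57.1, 55.8 and 56.9 FPKM in I3, with a log2 fold change of 0.010 ± 0.0493 (SE). MCM4 had 48.8, 52.5 and 51.5 FPKM in control and 51.4, 53.1 and 54.7 FPKM in I3, with a log2 fold change of 0.059 ± 0.0532 (SE). The groups of both genes overlapped, and the highest MCM6 value was 1.07 times its lowest. Unadjusted limma p-values of the 6 subunits ran from 0.301 (MCM4) to 0.977 (MCM3).

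**Figure D3:**
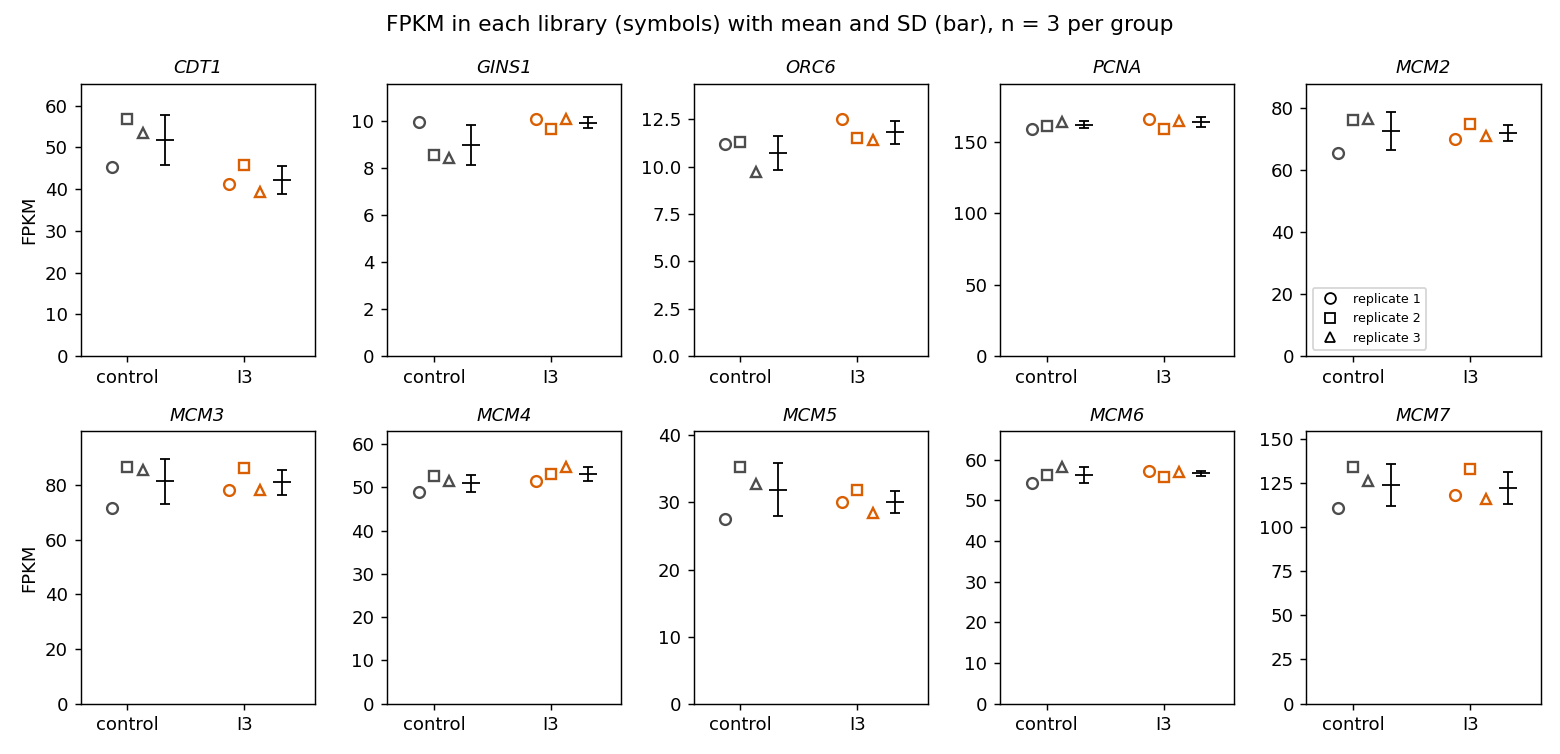
FPKM (vertical axes, each from 0) in the 3 control (grey) and 3 I3 (orange) libraries for 10 replication genes, with horizontal and vertical lines for the mean and SD of each group (n = 3). The I3 mean of CDT1 (42.2 FPKM) lies below its control mean (51.8 FPKM), whereas the means of PCNA and of MCM2 to MCM7 are nearly level, and the groups of ORC6 do not overlap.

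Among the factors that activate the helicase, GINS1 stood furthest above 0. GINS1, a subunit of the 4-subunit GINS ring, had 9.98, 8.55 and 8.46 FPKM in control and 10.1, 9.68 and 10.1 FPKM in I3. Control 1 lay between the I3 libraries and the groups overlapped, with a log2 fold change of 0.14 ± 0.0777 (SE), an unadjusted limma p of 0.109 and an exact permutation p of 0.2. With 1 library left out, the log2 fold change of GINS1 ran from 0.10 without control 3 (unadjusted limma p 0.298) to 0.21 without control 1 (p 0.00956). The GC correction gave 9.72, 8.79 and 8.68 FPKM in control and 9.98, 9.74 and 9.76 FPKM in I3, which did not overlap. GINS1 was then 1 of 44 members (2.27%) with I3 wholly above control, against 5.31% of all tested genes.

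The other subunits of GINS lay closer to 0, with GINS3 above it and GINS2 and GINS4 below. GINS2 had a log2 fold change of -0.052. GINS4 had 2.46, 2.14 and 2.45 FPKM in control and 2.32, 2.32 and 2.33 FPKM in I3, with a log2 fold change of -0.014 ± 0.0893 (SE). GINS3 had 2.24, 2.21 and 2.06 FPKM in control and 2.53, 2.29 and 2.09 FPKM in I3, with a log2 fold change of 0.067 ± 0.0975 (SE). GINS3 and GINS4 had the lowest levels of all 44 members, and their order could not be told apart, since their ranges over the 6 libraries overlapped. CDC45 (mean 23.0 FPKM) and MCM10 (mean 20.5 FPKM) had log2 fold changes of -0.043 and -0.0082.

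The primase and polymerase genes lay between -0.064 (POLD2) and 0.075 (POLE2) on the log2 scale, with 4 of 9 above 0 and 5 below. Their mean levels ran from 4.58 FPKM (POLE2, the second subunit of polymerase ε) to 65.9 FPKM (POLD2, the second subunit of polymerase δ). POLD3, an accessory subunit of polymerase δ, had 6.86, 7.05 and 7.11 FPKM in control and 6.44, 6.71 and 7.04 FPKM in I3. I3 1 and I3 2 lay below every control library and I3 3 among them, and the log2 fold change was -0.054 ± 0.0636 (SE). The smallest unadjusted limma p of the 9 genes was 0.419, that of POLD3. The catalytic subunits of polymerases α, δ and ε (POLA1, POLD1 and POLE) had log2 fold changes of 0.0019, -0.061 and 0.0061.

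PCNA had the highest and the steadiest level of the replication genes. Its values were 159, 161 and 164 FPKM in control and 166, 159 and 165 FPKM in I3, and the highest was 1.05 times the lowest. The log2 fold change was 0.018 ± 0.0451 (SE), with a 95% interval of -0.088 to 0.12 and an unadjusted limma p of 0.695. The groups overlapped, with I3 2 and control 1 at the same rounded value. Of the 5 RFC subunits that load PCNA, 4 had log2 fold changes above 0 (RFC2, RFC3, RFC4 and RFC5) and RFC1, the large subunit, had -0.053.

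RFC3 and RFC5 had the larger values of these 4 and did not pass the test. RFC3 had 10.4, 8.89 and 9.15 FPKM in control and 10.2, 9.37 and 11.1 FPKM in I3, with a log2 fold change of 0.11 ± 0.0871 (SE). RFC5 had 9.18, 9.94 and 8.35 FPKM in control and 10.2, 9.05 and 9.98 FPKM in I3, with a log2 fold change of 0.088 ± 0.0837 (SE). Both pairs of groups overlapped, and the unadjusted limma p-values were 0.264 and 0.327. The RPA subunits lay between -0.026 (RPA1) and 0.0054 (RPA3), and FEN1 and LIG1 had -0.051 and -0.014.

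Of the nucleotide supply genes, TYMS, which makes thymidylate, had the lowest fold change after CDT1. TYMS had 14.1, 12.9 and 12.3 FPKM in control and 14.0, 12 and 9.37 FPKM in I3. I3 1 lay within the control range, I3 2 just below it and I3 3 well below it. The log2 fold change was -0.16 ± 0.138 (SE), the largest SE of the named members, with an unadjusted limma p of 0.288 and an exact permutation p of 0.4. Without I3 3 the log2 fold change of TYMS was -0.0079 (unadjusted limma p 0.938), and without I3 1 it was -0.29 (p 0.0543). TYMS shares exon sequence with ENOSF1 and TYMSOS on the opposite strand. RRM1, the large subunit of ribonucleotide reductase, had 34.6, 35.1 and 38.7 FPKM in control and 36.7, 37.0 and 38.7 FPKM in I3, with a log2 fold change of 0.053 ± 0.0612 (SE) and overlapping groups, and RRM2 had a log2 fold change of 0.056.

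Exons of 20 of the 44 members overlap an exon of another gene, of 16 members on the opposite strand and of 6 on the same strand. The libraries were stranded, but the sources used here do not say whether counting was by strand, and the share of reads from the neighbours was not tested. CDT1, ORC6, GINS1, PCNA and MCM3 to MCM6 have no such overlap.

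**Figure D4:**
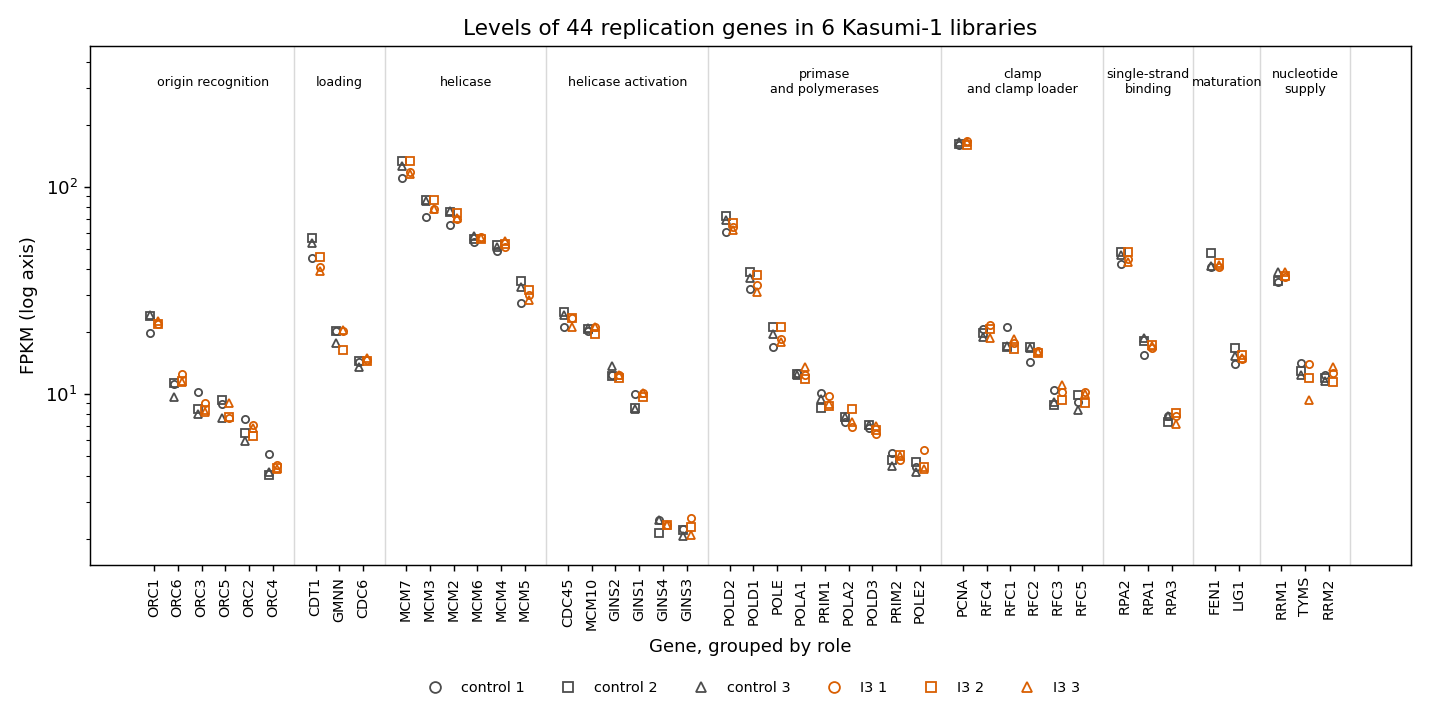
FPKM (log axis, vertical) of the 44 replication genes in each library, grouped by role and ordered by mean level within a role (horizontal), with grey symbols for control and orange for I3 and a shape for each replicate number. Levels run from 163 FPKM (PCNA) to 2.24 FPKM (GINS3), and the 6 symbols of a gene lie close together beside that range.

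The levels of the members spanned a far wider range than any difference between the groups. The mean over the 6 libraries ran from 163 FPKM for PCNA to 2.24 FPKM for GINS3, which is 72.7-fold on a scale per length. There were 7 members at 50 FPKM or more (PCNA, MCM7, MCM3, MCM2, POLD2, MCM6 and MCM4) and 15 below 10 FPKM. In the order of levels, all 6 libraries of a gene lay above all 6 of the next gene for 8 of 43 neighbouring pairs, among them PCNA over MCM7 and MCM7 over MCM3. The other 35 neighbouring pairs overlapped, although 17 of the 43 pairs kept their order within each single library.

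Genes whose products work in 1 complex were not at 1 level. Between the most and the least abundant subunit, the ratio of mean levels was 3.97 for MCM2 to MCM7 (123 FPKM for MCM7 and 31.0 FPKM for MCM5) and 5.03 for ORC. It was 5.97 for RPA, from 45.8 FPKM for RPA2 to 7.67 FPKM for RPA3. The loading factors summed to 79.6, 91.4 and 84.5 FPKM in control and 76.0, 76.8 and 74.7 FPKM in I3, a set of sums in which CDT1 has the largest share. The sum over all 44 members was 1227 ± 58.4 FPKM in control and 1213 ± 20.9 FPKM in I3 (SD, n = 3 each).

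Other genes of replication were read from lists that had also been set with earlier results of these data known. Of 32 tested genes of origin firing and fork protection, 0 were called by both thresholds in limma, and at the unadjusted p 0 were higher and 1 was lower (against 2.08% and 2.85% of all tested genes), with a median log2 fold change of 0.039. That gene was MCMBP, which binds MCM proteins, with 20, 20.8 and 21.8 FPKM in control and 18.7, 18.8 and 19.1 FPKM in I3. The groups of MCMBP did not overlap, and its log2 fold change was -0.14 ± 0.0556 (SE) with an unadjusted limma p of 0.0369 and an exact permutation p of 0.1. Of the 32 genes, 3 had I3 wholly above control and 2 wholly below, against 5.06% and 4.64% of all tested genes. RAD1, a subunit of the checkpoint clamp, had 4.82, 3.67 and 4.39 FPKM in control and 5.09, 4.79 and 5.54 FPKM in I3, with overlapping groups and a log2 fold change of 0.24 ± 0.107 (SE). With 1 library left out, the unadjusted limma p of MCMBP was 0.077 without control 2, 0.141 without control 3, 0.0951 without I3 1, 0.0815 without I3 2 and 0.0643 without I3 3, so that only leaving out control 1 kept it under 0.05. That of RAD1 was 0.0581 with all libraries and ran from 0.0194 without control 1 to 0.184 without control 2.

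Of 25 tested genes of chromatin assembly and nucleotide supply, 0 were called at the adjusted p in limma and 0 at the unadjusted p in either direction, with a median log2 fold change of 0.00025. SLBP, the protein that binds the stem loop of histone mRNAs, had 55.1, 49.9 and 47.8 FPKM in control and 50.4, 40.0 and 37.7 FPKM in I3. Its groups overlapped through I3 1, and the log2 fold change was -0.26 ± 0.113 (SE) with an unadjusted limma p of 0.0538. With 1 library left out, that p of SLBP ran from 0.00284 without I3 1 to 0.17 without I3 3 and was over 0.05 without any of the other libraries. CHAF1A, the large subunit of the chromatin assembly factor that PCNA recruits, had 22.6, 22.8 and 22.7 FPKM in control and 21.5, 22.0 and 20.8 FPKM in I3. Its groups did not overlap, with a log2 fold change of -0.082 ± 0.0508 (SE) and an unadjusted limma p of 0.147. Of the 25 genes, 0 had I3 wholly above control and 2 wholly below, against 5.06% and 4.64% of all tested genes.

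Of 17 tested genes of the E2F and RB family, 0 were called by both thresholds in limma, and at the unadjusted p 2 were higher (E2F6 and RBL1) and 2 were lower (MYBL2 and E2F1), with a median log2 fold change of 0.039. Over all tested genes, 2.08% were higher and 2.85% lower at that p. I3 lay wholly above control in 3 of the 17 genes and wholly below in 2, against 5.06% and 4.64% of all tested genes. MYBL2, a partner of the MuvB complex in late cell cycle transcription, had 96.0, 114 and 105 FPKM in control and 95.6, 84.7 and 79.9 FPKM in I3. All its I3 values lay below its control values, the nearest by less than 1 FPKM, and the log2 fold change was -0.27 ± 0.0876 (SE) with an adjusted p of 0.862 (limma, Benjamini-Hochberg). E2F6, a repressor of the family, had 7.41, 7.10 and 7.43 FPKM in control and 7.93, 8.75 and 8.85 FPKM in I3, with a log2 fold change of 0.20 ± 0.0674 (SE) and an adjusted p of 0.868. E2F1, an activator of the family, had a log2 fold change of -0.22 ± 0.0905 (SE), and RBL1, the pocket protein p107, had 0.22 ± 0.0898 (SE), both with an adjusted p of 0.998 in limma. E2F1 had 19.9, 23.8 and 20.8 FPKM in control and 18.8, 19.7 and 16.6 FPKM in I3. RBL1 had 6.48, 5.78 and 5.85 FPKM in control and 7.21, 6.4 and 7.83 FPKM in I3, with overlapping groups. Their GC contents are 62.5% and 40.7%, and the share of the libraries' GC pattern in these differences was not tested. The unadjusted limma p of MYBL2 was 0.0164 with all libraries, 0.0581 without control 2 and 0.0565 without I3 3, and that of E2F6 was 0.0181 with all libraries, 0.059 without control 2, 0.0584 without I3 2 and 0.0631 without I3 3.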

How the data were processed

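The authors isolated RNA with Trizol, prepared stranded mRNA libraries, and deposited 1 FPKM value per gene and library for 3 control and 3 I3 libraries (48 h). The submitters' processing notes name Trimmomatic, HISAT2, Cufflinks, HTSeq and hg38, without versions or roles, and no source used here gives the annotation. The labels name the compound I3, whereas the name of the deposited table has I13. Of 29810 identifiers, 29703 were in GENCODE release 29, which gave symbols, coordinates, exon lengths and GC content. Reads were rebuilt from FPKM and exon length to show depth (95.8% of 26519 genes whole within 0.1 read in all libraries, 41 of the 44 members among them), and depth sets the counting error of each value.

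The deposited FPKM were tested with limma 3.58.1 in R 4.3.3 (lmFit, eBayes with trend, two-sided) on log2(FPKM + 0.5) over all 12960 genes with a mean of at least 0.5 FPKM, with Benjamini-Hochberg adjustment. The authors used DESeq, a test for counts, and limma was used because the deposited unit is FPKM. Fold changes on this scale understate those of low genes. Exact permutation tests (two-sided) went through all splits of 3 against 3 libraries with Python 3.11.15 and numpy 2.4.6, and rank correlations over the members used scipy 1.17.1. The procedure was tested on simulated data. The members and lists were chosen with earlier results of these data known. Values in every library are given for the 10 members with the smallest unadjusted p, MCM2 to MCM7, PCNA, the 3 members at either end of the levels, and the 2 genes with the smallest p in each other list, and E2F1 and RBL1 were added after their values were seen. Alternatives were other pseudocounts, filters, scalings, a GC correction (lowess, span 0.3), the replicate block, voom on rebuilt reads, each library left out and, chosen after the data had been seen, the library cluster by GC as a term. Promoters came from RefSeq.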

Additional observations from a re-analysis of the deposited data

How the results depend on the processing

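No member was called at the adjusted p in any alternative, and the intervals within the fold threshold were those of all 44 members wherever all 6 libraries and all members were tested, of 39 of 39 tested at a minimum of 5 FPKM, and of 42 to 44 with a library left out (42 without I3 2). Over all genes, leaving out single libraries called 0 to 1 higher (1 without control 1) and 0 to 2 lower (2 without I3 1 and 1 without I3 2). At the unadjusted p, 0 to 1 members were higher (GINS1 without control 1) and 0 to 2 lower (CDT1 and MCM5 without control 1, and 0 without control 2, control 3, I3 1 or I3 3). Shares of all tested genes at that p are not given for these fits, so these counts cannot be set against them. I3 lay wholly above control in 2 members after rescaling to TPM (4.55%, against 5.53% of all tested genes) and in 4 after quantile normalization (9.09% against 4.63%). With a library left out it did in 2 to 8 members, 8 without I3 2 (18.2% against 10.6%) and 5 without control 1 (11.4% against 18.9%). I3 lay wholly below control in 2 members after the GC correction (4.55% against 5.62%) and in 0 to 9 with a library left out, 9 without control 1 (20.5% against 12.1%). The median log2 fold change was 0.015 with the library cluster as a term and -0.012 to 0.011 with a library left out (0.011 without control 2). Causes of these shifts were not tested. Over the 13 alternatives with all 6 libraries, the log2 fold change of CDT1 was -0.30 to -0.21 and its adjusted p in limma 0.58 to 0.964. The sign turned in at least 1 of them for 20 members, and for 28 members once the fits with a library left out were included. Apart from CDT1 the largest size was 0.17 (TYMS), or 0.29 (TYMS) with a library left out. The deviations of same-numbered libraries from their group means had correlations of 0.0634, 0.151 and -0.0239. Control 2 was closest to I3 2, whereas control 1 and control 3 were not closest to the I3 library of their number. Correlations over genes with 3 libraries per group cannot settle whether the numbers pair the libraries. With the replicate block, CDT1 kept -0.29 with an adjusted p of 0.675 in limma, and the count of members lower at the unadjusted p stayed at 1. Of the other named genes, the block brought the unadjusted limma p of SLBP to 0.00683 and of RAD1 to 0.0335.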
